A study of Mus musculus with 38 samples.

Results

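Endothelial cells form the inner lining of blood and lymph vessels, and in the lung they make up the dense capillary bed through which oxygen passes from air to blood. They hold together through adhesion proteins such as VE-cadherin, read VEGF and angiopoietin through receptor kinases, and release nitric oxide and clotting regulators into the vessel. A set of 36 genes known for their expression in these cells was followed in mice that had been given dibenz(a,h)anthracene (DBahA), a genotoxic polycyclic aromatic hydrocarbon. The question was whether these genes moved together with dose, or whether single genes responded while the rest kept their level. The genes were chosen by name, as known endothelial genes, from among the 20018 genes that could be named on the array, and all 36 had at least 1 probe. They fell into adhesion and junction proteins, multimerins, receptors for VEGF and angiopoietin, the BMP pathway, transcription factors, peptide signals with their receptors, and secreted, luminal and vasoactive proteins.

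All mice were male MutaMouse, a transgenic strain that carries a bacterial reporter for scoring mutations, and were aged about 10 weeks. They were gavaged daily for 28 days with olive oil alone (D0) or with 6.25 (D1), 12.5 (D2) or 25 (D3) mg of DBahA per kg of body weight, and tissue was taken 72 h after the final dose. The lung groups held 5, 5, 4 and 5 mice, from D0 to D3, and forestomach, the squamous-lined front part of the rodent stomach, was taken from 5, 5, 4 and 4 of the same animals. RNA came from random pieces of each frozen tissue, in which all cell types are mixed, so fewer endothelial cells and less RNA per endothelial cell cannot be told apart in these values. Each array compared 1 tissue RNA (Cy5) with a reference RNA pooled from 11 mouse cell lines (Cy3), and the value analysed is the log2 ratio of the tissue to that reference. A gene passed the test at an adjusted p of at most 0.05 together with a fold change of at least 1.5.

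The set was first checked against tissue in the untreated mice. Of the 36 genes, 35 passed as higher in D0 lung than in D0 forestomach, where 16.2% of all probes differed between the tissues in either direction. Of all 55681 probes, 4801 passed as higher in lung. Cdh5, which encodes VE-cadherin, differed by a log2 ratio of 5.66 (SE 0.24). Its reference channel was well above background on 1 of the 5 D0 forestomach arrays, so its ratio in that tissue rests on a dim denominator. Flt4, the VEGF receptor of lymphatic vessels, was the exception, with a difference of 0.30 and an adjusted p of 0.0803. Its signal was well above background on 3 of the 5 D0 lung arrays and on none of the forestomach arrays. For Cd34 the answer depended on the probe, with 1.33 for the one used here and -0.05 (adjusted p = 0.899) for its second probe. Each gene was read from its brightest probe in lung, which can favour lung for the 8 genes with 2 probes. The other 28 genes had 1 probe. Erg and Calcrl were also not well above background on any D0 forestomach array, so their tissue differences are bounds, at least 3.54-fold and at least 4.13-fold. In lung, 35 of the 36 genes were well above background in the tissue channel on all 19 arrays, with Flt4 at 17 of 19.

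At the highest dose 5 of the 36 genes changed in lung. Mmrn2, Cd34 and Nos3 rose, and Gpihbp1 and Esm1 fell. This is 13.9% of the set, where 0.639% of all probes on the array passed the same test, or 1.78% when the background was limited to 1 probe per gene with signal on every lung array. The genes were named with earlier results of these data known, so these shares describe the set and test nothing. Of all 36 genes, 21 were higher and 15 lower at D3 than at D0, and their median log2 fold change was 0.02, beside -0.00034 over all probes. The 31 genes that did not pass lay between -0.92 (Ednrb) and 0.96 (Emcn), with a median of 0.02. For 17 of these the 95% confidence interval stayed within a 1.5-fold change on either side, and for the other genes a change of that size was not excluded by the interval.

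**Figure D1:**
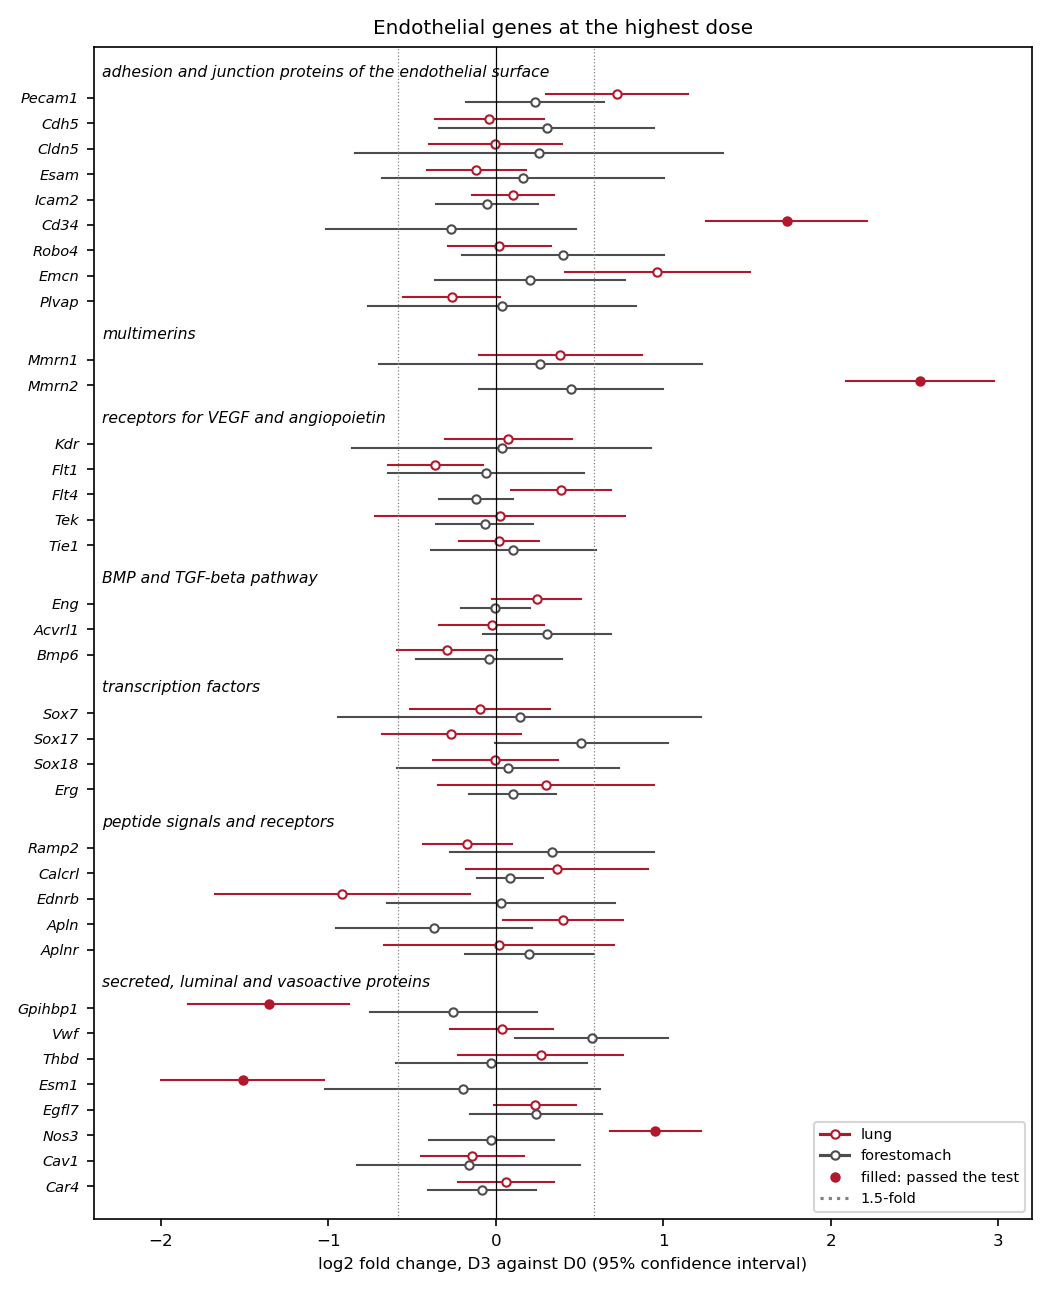
Log2 fold change of each of the 36 endothelial genes at D3 against D0 (x axis) in lung (red) and forestomach (grey), by role, with points for the fitted value, bars for the 95% confidence interval and filled points for genes that passed the test. In lung the 5 filled points lie from -1.51 (Esm1) to 2.53 (Mmrn2), while most other genes straddle 0, and no forestomach point is filled.

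Mmrn2 gave the largest change of the set. It encodes multimerin-2, a glycoprotein that endothelial cells lay down in the matrix around vessels and that binds the surface receptors CD93, CLEC14A and CD248. In the 5 D0 lungs its log2 ratio was 5.58, 5.00, 5.02, 4.40 and 5.17. At D1 it was 7.06, 6.54, 6.45, 7.00 and 6.74, and at D2 7.03, 7.44, 7.37 and 6.65. At D3 the values were 7.98, 7.22, 6.97, 7.82 and 7.83. Every dosed lung was above every D0 lung, with the closest D1 lung 0.87 above the highest D0 lung. The log2 fold changes were 1.72 at D1 (SE 0.21, adjusted p = 2.97e-04), 2.09 at D2 (SE 0.23, adjusted p = 3.34e-05) and 2.53 at D3 (SE 0.21, adjusted p = 7.66e-07), the last a 5.78-fold rise. Between D1 and D3 the difference of 0.81 had an adjusted p of 0.965.

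Cd34, a sialomucin of capillary endothelium and of blood progenitor cells, followed at higher doses. Its log2 ratios in D0 lung were 0.98, 0.82, 0.83, 0.48 and 0.76, and at D1 they were 1.66, 1.49, 1.25, 1.52 and 1.33. At D2 they were 1.74, 2.83, 2.42 and 1.84, and at D3 3.09, 2.09, 1.64, 2.99 and 2.72. No dosed lung overlapped the D0 range. The change was 0.68 at D1, which did not pass (adjusted p = 0.540), 1.43 at D2 (SE 0.24, adjusted p = 0.00513) and 1.73 at D3 (SE 0.23, adjusted p = 2.47e-04). A second probe of Cd34 also rose at D3, by 1.09 (adjusted p = 0.00601).

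Nos3 encodes the endothelial nitric oxide synthase, whose product relaxes vessel walls. In D0 lung its log2 ratios were 1.83, 1.76, 1.54, 1.12 and 1.39, and at D3 they were 2.37, 2.31, 2.29, 2.74 and 2.69. The lungs in between gave 2.10, 2.24, 2.03, 1.76 and 1.88 at D1 and 2.40, 2.30, 2.09 and 2.09 at D2. The D1 lungs overlapped the D0 range and the D2 and D3 lungs lay above it. The change was 0.47 at D1 (adjusted p = 0.298), 0.69 at D2 (SE 0.14, adjusted p = 0.0229) and 0.95 at D3 (SE 0.13, adjusted p = 3.65e-04). The call at D2 was lost when any of 4 single mice was left out, D0 mouse 4 or 5 or D2 mouse 11 or 12, with adjusted p from 0.0669 to 0.116. It was also lost in 6 of 14 other settings, among them only the compared groups (adjusted p = 0.0955), the mean over probes (0.63, adjusted p = 0.0626) and the value relative to the other genes of the set (0.64, adjusted p = 0.219). The second probe of Nos3 gave 0.82 at D3 (adjusted p = 0.0116).

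Gpihbp1 and Esm1 moved the other way. Gpihbp1 encodes the protein that carries lipoprotein lipase to the capillary lumen. Its log2 ratio was 5.49, 4.75, 5.25, 5.53 and 5.57 in D0 lung and 3.51, 4.03, 4.19, 3.96 and 4.13 at D3, with no overlap. At D1 it was 5.09, 4.48, 4.80, 5.00 and 5.38, and at D2 5.34, 3.91, 3.92 and 4.48, where D2 mouse 11 lay within the D0 range. The change was -0.37 at D1 (adjusted p = 0.840), -0.91 at D2 (adjusted p = 0.161) and -1.36 at D3 (SE 0.23, adjusted p = 0.00290). From the scanner software's own log ratio the value at D3 was -1.13 and did not pass (adjusted p = 0.0642).

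Esm1 encodes endocan, a proteoglycan secreted by endothelium under VEGF and a marker of sprouting tip cells. Its log2 ratio was 1.88, 2.43, 1.94, 0.93 and 1.57 in D0 lung and 0.38, 0.58, 0.10, -0.18 and 0.33 at D3. At D1 it was 1.13, 1.39, 0.78, 0.70 and 1.47, and at D2 1.49, 0.66, 0.47 and 0.98. Only the D3 lungs were all below the D0 range. The change was -0.66 at D1 (adjusted p = 0.582), -0.85 at D2 (adjusted p = 0.221) and -1.51 at D3 (SE 0.23, adjusted p = 0.00126), which is 0.351 of the D0 level.

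**Figure D2:**
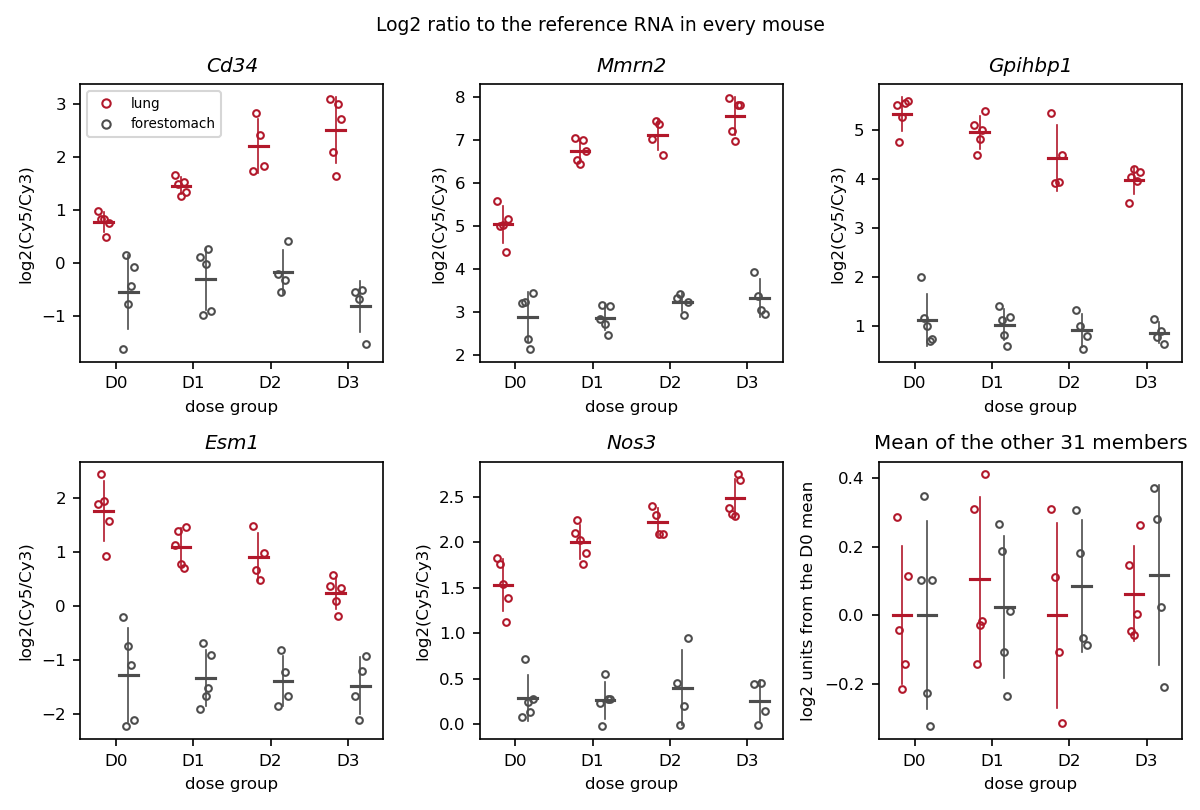
Log2 ratio to the reference RNA (y axis) in every mouse by dose group (x axis) for the 5 genes that passed in lung at D3, and the mean of the other 31 genes as a difference from their D0 mean, with lung in red, forestomach in grey, long lines for group means and bars for the SD. The 5 D3 lungs lie outside the D0 range for each of the 5 genes, while the mean of the other 31 spans -0.06 to 0.26 at D3, within the D0 range of -0.22 to 0.29.

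Counted over doses, 1 gene of the set passed at D1 (Mmrn2, 2.78% of the set where 0.140% of all probes passed), 3 at D2 (8.33% where 0.264% passed) and 5 at D3. A slope over dose was called for the same 5 genes at an adjusted p of at most 0.05, where 0.830% of all probes had such a slope. Per mg of daily dose per kg of body weight, the log2 slope was 0.09 for Mmrn2, 0.07 for Cd34, 0.04 for Nos3, -0.05 for Gpihbp1 and -0.06 for Esm1. Between D3 and D1 limma called no gene of the set, and 0% of all probes passed, with 8 of the 36 genes and 4.4% of all probes at an unadjusted p under 0.05. Without any test, the D0 and D3 lungs did not overlap for 6 genes, the 5 above and Egfl7, a matrix protein of angiogenic vessels, whose change of 0.23 did not pass (adjusted p = 0.476). Over all probes with a value in each of these lungs, 3.10% did not overlap.

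Slide and other tissue in the sample were followed beside these 5 genes. Of the 5 slides, 4 held at least 1 D0 lung. Against the D0 lung of the same slide, Mmrn2 was higher in all 4 D3 lungs on those slides, by 1.96 to 3.42, Cd34 by 0.82 to 2.51 and Nos3 by 0.55 to 1.62. Gpihbp1 was lower in all 4, by -1.58 to -0.71, and Esm1 by -1.85 to -1.12. Markers of mesothelium, the outer covering of the lung, were lower at D3 for 4 of 4 genes, with a median of -0.84 and none past the test, and their mean per mouse ran from -1.39 to -0.13 at D3 and from -0.96 to 1.76 at D0. With this mean as a covariate the 5 genes still passed, with Mmrn2 at 2.73 and Gpihbp1 at -1.39. Heart muscle markers, whose mean ran from -0.97 to 1.83 at D3 and from -0.76 to 0.62 at D0, left all 5 past the test as a covariate too. Blood cell markers were lower for 3 of 3 genes (median -0.38), macrophage markers higher for 4 of 4 (0.27) and alveolar type 2 markers lower for 6 of 6 (-0.13), none past the test. Markers of pericytes, the contractile cells around capillaries, had a mean per mouse of 0.25 at D1, 0.27 at D2 and 0.30 at D3, where it ran from 0.07 to 0.58 against -0.17 to 0.18 at D0, with no gene past the test. The part of these cells in the results was not tested. Median centring of each array in place of the loess curve left only Mmrn2 past the test at D3 (2.64, adjusted p = 0.0191), and only 16 probes of the whole array. Without passing, Cd34 was then at 2.12, Nos3 at 1.24, Esm1 at -1.01 and Gpihbp1 at -0.74, while the median of genes with signal moved to 0.41.

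For Cd34 and Esm1 the 250 bases before the start were given by RefSeq on GRCm38.p6, as for 20 of the 36 genes in all. Of the 5 genes only these 2 had such a window, so these are shown, and none was available for Mmrn2, Nos3 and Gpihbp1. Cd34 and Esm1 moved in opposite directions in the same lungs. The capitals mark GGAA or its reverse complement, the core bound by ETS factors such as Erg. Both lie on the plus strand, Cd34 at chr1:194938571-194938820 and Esm1 at chr13:113209409-113209658.
Cd34: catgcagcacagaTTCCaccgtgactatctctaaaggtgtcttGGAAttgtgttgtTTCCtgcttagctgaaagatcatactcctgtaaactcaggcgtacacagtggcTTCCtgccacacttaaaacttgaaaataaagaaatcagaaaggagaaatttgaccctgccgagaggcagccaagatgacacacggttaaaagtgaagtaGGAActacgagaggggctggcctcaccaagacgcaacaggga
Esm1: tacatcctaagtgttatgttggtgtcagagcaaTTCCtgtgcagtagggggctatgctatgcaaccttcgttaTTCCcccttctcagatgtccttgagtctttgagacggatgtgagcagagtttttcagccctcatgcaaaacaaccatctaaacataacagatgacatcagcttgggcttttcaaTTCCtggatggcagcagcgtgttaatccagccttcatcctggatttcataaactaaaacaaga
The core was found 5 times in the Cd34 window and 3 times in the Esm1 window, beside a median of 3 in 32851 windows of the same length, 93.4% of which held at least 1. GCGTG, the core read by the aryl hydrocarbon receptor, was found 1 time in the Esm1 window, on the printed strand, and not on either strand of the Cd34 window, and 28.2% of all windows held it. CACGTG, which reads alike on both strands, was in neither window and in 6.02% of all. The motifs were counted independently of each other, and a match is a description of the letters only.

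The other genes of the endothelial surface did not pass at D3. Of the 9 adhesion and junction proteins, Cd34 alone rose, and the median of the group was 0.02. Cdh5 (-0.04), Cldn5 (0.00), the tight junction protein of endothelium, Icam2 (0.10) and Robo4 (0.02) lay close to 0, as did Esam at -0.12. Robo4 passed at D3 from the normalized Cy5 signal alone. Plvap, the diaphragm protein of fenestrated capillaries, was at -0.26. Emcn and Pecam1 stood apart from them. Emcn, which encodes the mucin endomucin of capillaries and veins, was at 0.96 (SE 0.27, adjusted p = 0.0875) and Pecam1, the junction protein CD31, at 0.72 (SE 0.20, adjusted p = 0.0971). Their D0 and D3 ranges overlapped, from 1.96 to 3.15 against 2.74 to 4.14 for Emcn and from 1.86 to 3.07 against 2.68 to 3.58 for Pecam1. Both passed when slide was a block, Emcn at 1.03 (adjusted p = 0.00399) and Pecam1 at 0.78 (adjusted p = 0.00138), and when D0 mouse 1 was left out (1.13, adjusted p = 0.0431, and 0.89, adjusted p = 0.0203). Emcn also passed without D3 mouse 18 (1.14, adjusted p = 0.0351). Of 14 settings other than single mice left out, Emcn passed in 7 and Pecam1 in 4, slide as a block included. Among these was scan date as a block, with Emcn at 1.03 (adjusted p = 0.00270) and Pecam1 at 0.82 (adjusted p = 0.00112).

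Mmrn1, the multimerin of platelets and of lymphatic endothelium, was at 0.38 (SE 0.23, adjusted p = 0.588), so that of the pair only Mmrn2 rose. The difference between the genes was not tested. None of the 5 receptors for VEGF and angiopoietin passed. Kdr, the main signalling receptor for VEGF, was at 0.07, Tie1 at 0.02 and Tek, the angiopoietin receptor, at 0.03. Flt1, the VEGF receptor that acts largely as a decoy, was at -0.36 (adjusted p = 0.264) and Flt4 at 0.39 (adjusted p = 0.259). Eng and Acvrl1, the coreceptor and receptor for BMP9, were at 0.24 and -0.02, and the ligand Bmp6 was at -0.29 (adjusted p = 0.455), with none of the 3 past the test.

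Of the 4 transcription factors none passed. Sox7 was at -0.10, Sox17 at -0.27, Sox18 at 0.00 and Erg at 0.30 with an SE of 0.31. Erg and Calcrl had no signal well above background in the reference channel on any lung array, so their ratios rest on a dim denominator. Among peptide signals and receptors, Ednrb, the endothelin receptor B that marks the large alveolar capillary cells called aerocytes, had the lowest value of the genes that did not pass, -0.92 (SE 0.37, adjusted p = 0.310). Its log2 ratio was 3.56, 2.48, 1.70, 2.23 and 3.16 in D0 lung and 1.95, 1.89, 1.97, 0.86 and 1.90 at D3, so that the ranges overlapped through D0 mouse 3. Ednrb passed with slide as a block (-0.87, adjusted p = 0.0416) and relative to the other genes of the set (-1.06, adjusted p = 0.0258). Apln, a ligand made by aerocytes and tip cells, was at 0.40 (adjusted p = 0.369) and its receptor Aplnr at 0.02. Ramp2 and Calcrl, the 2 parts of the adrenomedullin receptor, were at -0.17 and 0.37.

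The secreted, luminal and vasoactive group held 3 of the 5 genes that changed, Nos3 upwards and Gpihbp1 and Esm1 downwards, and its median was 0.05. Vwf, the clotting carrier stored in endothelial granules, was at 0.03, and Thbd, the anticoagulant thrombomodulin, at 0.27 (adjusted p = 0.751). Cav1, which forms caveolae, was at -0.14 and Car4, a carbonic anhydrase of the alveolar capillary surface, at 0.06. The set was also sorted by vessel type, and of the 5 genes Mmrn2, Nos3 and Esm1 were in none of these lists. The 4 general capillary markers in the set held Cd34, which rose, and Gpihbp1, which fell, with Aplnr and Plvap not past the test. None of the 3 aerocyte, 2 lymphatic or 4 large vessel markers passed, with Ednrb passing in the alternatives above and Flt4 with mesothelium markers as a covariate.

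**Figure D3:**
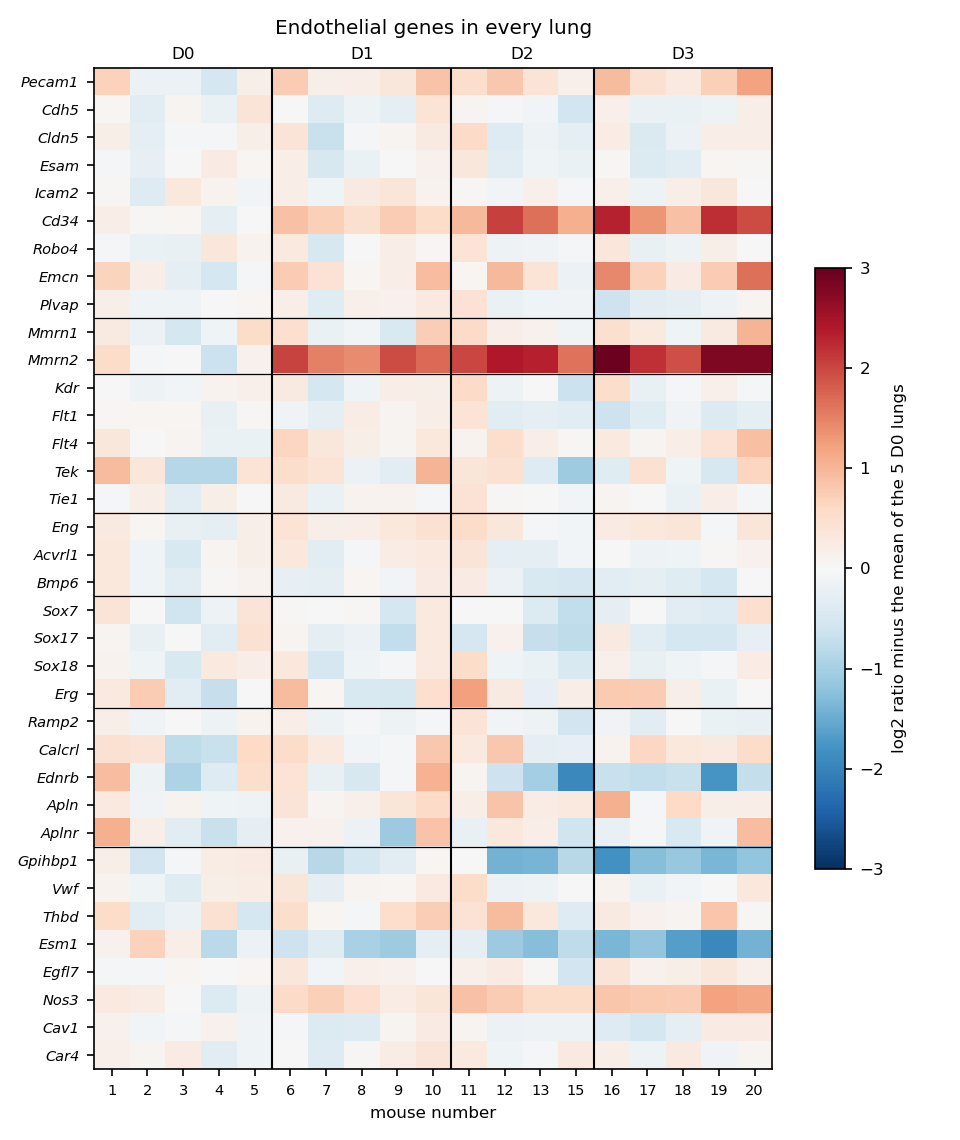
Log2 ratio of each of the 36 genes (rows, by role) in each of the 19 lungs (columns, by dose group and mouse number) minus the mean of the 5 D0 lungs, on a colour scale from -3 to 3. Mmrn2 and Cd34 darken to red and Gpihbp1 and Esm1 to blue across the dosed lungs, while most other rows stay pale in every dose group.

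The level of the whole set per lung was then compared with its co-variation. The mean of the 36 genes per mouse, as a difference from D0, was 0.14 ± 0.22 (SD, n = 5) at D1, 0.07 ± 0.26 (n = 4) at D2 and 0.12 ± 0.14 (n = 5) at D3, and the D0 lungs had an SD of 0.20. Without the 5 genes it was 0.06 ± 0.14 at D3. Measured against the mean of the other genes of the set in the same lung, the 5 changes at D3 were of like size, with 2.48 for Mmrn2, 1.66 for Cd34, 0.86 for Nos3, -1.52 for Gpihbp1 and -1.68 for Esm1.

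Within dose groups the genes did vary together. After subtracting dose means, Pearson's r between pairs of the 36 genes over the 19 lungs had a median of 0.33, with quartiles of 0.14 and 0.51. Over pairs of the 11629 genes with signal on every lung array the median was 0.05. Against the mean of the 31 genes that did not pass, Mmrn1 (0.84), Ednrb (0.83), Pecam1 (0.83) and Sox18 (0.81) had the highest r. Of the 5 that passed, Mmrn2 was at 0.57, Gpihbp1 at 0.45, Nos3 at 0.34, Esm1 at 0.31 and Cd34 at 0.25, and Icam2 alone was below 0 at -0.10. Mmrn2 and Cd34 had an r of 0.84 with each other within dose groups, while Gpihbp1 and Esm1, which both fell, had 0.10. All these points share their arrays, slides and tissue pieces, and the coefficients are descriptions.

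**Figure D4:**
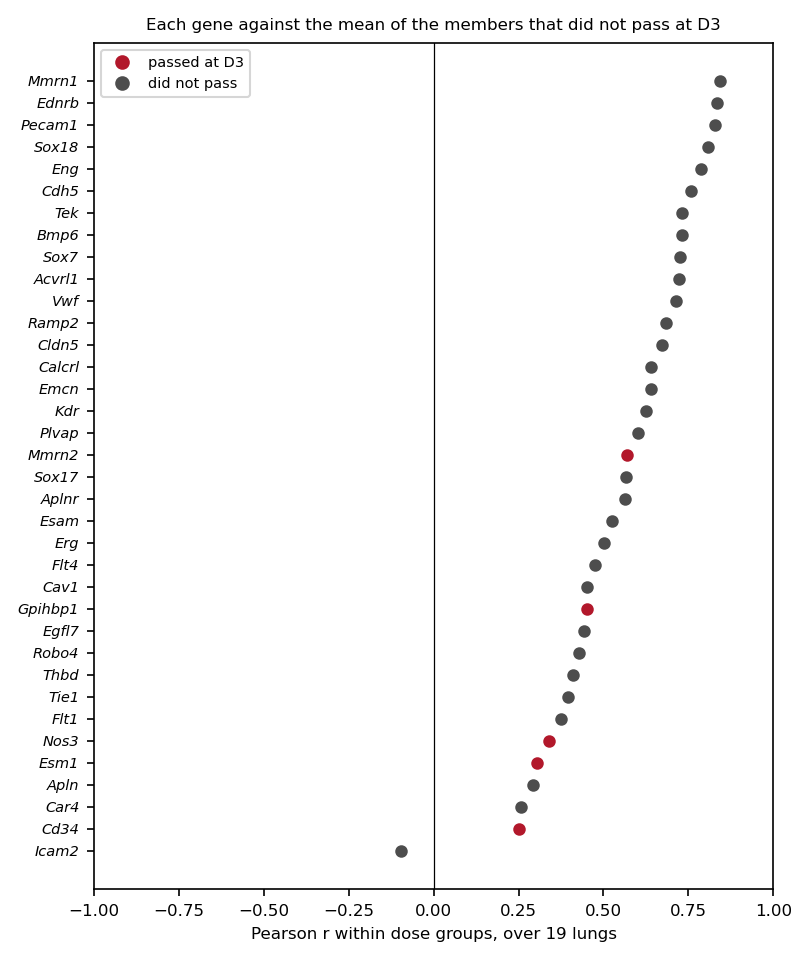
Pearson's r (x axis) over 19 lungs, after subtracting dose group means, between each gene (rows) and the mean of the genes that did not pass at D3, itself left out, with red points for the 5 genes that passed. All genes but Icam2 (-0.10) lie above 0, and Cd34 (0.25) lies near the lower end.

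In forestomach limma called none of the 36 genes at D1, D2 or D3, where 0% of all probes passed at each dose, and an unadjusted p was under 0.05 for 0, 2 and 1 of them, beside 4.32%, 3.1% and 3.56% of all probes. At D3 the set ran from -0.37 to 0.57 (Vwf), with a median of 0.08. The lowest value was that of Apln, which was well above background on 6 of the 19 forestomach arrays. Of the 36 genes, 21 were well above background in the tissue channel on all 19. Mmrn2 had log2 ratios of 3.21, 3.23, 2.36, 2.12 and 3.43 in D0 forestomach and 3.93, 3.36, 3.04 and 2.96 at D3. The ranges overlapped, and the change was 0.45 (SE 0.26, 95% interval from -0.10 to 1.00). Cd34 was at -1.64, 0.15, -0.79, -0.43 and -0.09 in D0 and at -0.55, -0.70, -0.52 and -1.54 at D3, with a change of -0.27. Nos3 (-0.03), Gpihbp1 (-0.25) and Esm1 (-0.20) gave small values there, and Esm1 was well above background on 13 of the 19 forestomach arrays. Markers of glandular stomach varied widely between forestomach pieces, with a mean per mouse from -3.52 to 2.99 at D0 and from -0.28 to 2.54 at D3, and all 8 were higher at D3 by a median of 1.10 with none past the test. Their part in the forestomach values was not tested.

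The difference between the tissues was tested directly. The D3 response was larger in lung than in forestomach for 2 of the 36 genes, 5.56% of the set where 0.172% of all probes differed. Mmrn2 differed by 2.08 (SE 0.35, adjusted p = 0.00286) and Cd34 by 2.00 (SE 0.43, adjusted p = 0.0377). The Mmrn2 call held when any single mouse was left out. A second probe of Cd34 gave 1.25 (adjusted p = 0.0360). The call of the first probe was lost when 1 of 13 samples was left out, with adjusted p up to 0.102, namely D0 lung 2, 3, 4 or 5, D0 forestomach 2, 4 or 5, D3 lung 16, 19 or 20 and D3 forestomach 16, 17 or 19. Pairing the tissues of each mouse through a fixed replicate block gave Cd34 1.95 (adjusted p = 0.167) and lost the call, while a random replicate block kept it (2.00, adjusted p = 0.0207). Nos3 differed by 0.98 (adjusted p = 0.0591), Gpihbp1 by -1.10 (adjusted p = 0.423) and Esm1 by -1.31 (adjusted p = 0.607), so that a difference in response was not shown for these 3. For Nos3 the answer depended on the setting. It passed with dim probes filtered out, with the mean over probes, with only the second array of mouse 18 and with a random replicate block. It also passed without D0 lung 1 or D0 forestomach 1.

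Genes that act with the set were drawn from lists of 72 further genes. In lung at D3, 2 rose and 3 fell, against the array-wide shares of 0.639% of probes and 1.78% of genes with signal given above. Vegfc, the growth factor read by Flt4, rose by 1.28 (SE 0.20, adjusted p = 0.00126), and its response was larger in lung than in forestomach by 1.39 (adjusted p = 0.0183). That difference was lost without D3 forestomach 19 (1.27, adjusted p = 0.0526) and with a fixed replicate block (1.23, adjusted p = 0.0862). It was also lost with only the compared groups (1.39, adjusted p = 0.0694), from the scanner software's log ratio (1.31, adjusted p = 0.248) and with median centring (1.05). Lmo2, an adaptor of blood and vessel transcription complexes, rose by 0.77 (SE 0.13, adjusted p = 0.00197). The Lmo2 call was lost relative to the genes of the set (0.65, adjusted p = 0.131) and with median centring (1.17, adjusted p = 0.732). Efnb2, which encodes ephrin-B2 of arterial endothelium, fell by 1.002 (SE 0.15, adjusted p = 6.29e-04), and at D2 by 0.75 (adjusted p = 0.0279). The D2 call of Efnb2 was lost without any of 7 single mice, D0 mouse 1, 2, 3 or 5 or D2 mouse 12, 13 or 15 (adjusted p up to 0.145), and was at -0.24 with median centring. Gata2, a transcription factor of endothelium and blood progenitors, fell by 0.68 (adjusted p = 0.0175), and Tspan18, an endothelial tetraspanin, fell by 0.62 (adjusted p = 0.0111). The Gata2 call was lost without D0 mouse 3 or D3 mouse 16, 17 or 19 (adjusted p up to 0.0668). With mesothelium markers as a covariate Gata2 was at -0.61 and did not pass (adjusted p = 0.0697). Without D3 mouse 19, Tspan18 was at -0.53 and under the fold threshold, as it was with slide (-0.58) or scan date (-0.58) as a block. Under moderation with a trend and robust variances, neither passed (adjusted p = 0.0576 for Gata2 and 0.0775 for Tspan18), and with median centring they were at -0.23 and -0.13.

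The partners of Mmrn2 did not pass, with Cd93 at 0.28, Clec14a at 0.08 and Cd248 at 0.08. Neither did the 7 genes that handle lipid with Gpihbp1. Lpl, the lipase it carries, was at -0.07, Lmf1, its maturation factor, at 0.12, the fatty acid carrier Cd36 at -0.54 (adjusted p = 0.133) and the lipase inhibitor Angptl4 at -0.83 (SE 0.42, adjusted p = 0.483). Fabp4 (0.37), Fabp5 (0.06) and Slc27a3 (0.28) were higher without passing. Of 10 tip cell genes Esm1 alone passed, and the list median was 0.31. None of 6 genes of inflamed endothelium (median 0.14) and none of 9 BMP and Notch targets (median 0.03) passed.

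Genes next to the 5 on the chromosome were looked up in the RefSeq order. Sncg, the neighbour of Mmrn2 at the lower coordinate, encodes gamma-synuclein and also rose, by 0.83 at D2 (adjusted p = 0.0136) and 0.89 at D3 (adjusted p = 0.00219). Bmpr1a on the other side of Mmrn2 was at 0.04. Next to Cd34, Cd46 was at 0.00 and Plxna2 at 0.43 (adjusted p = 0.382). Next to Nos3, Kcnh2 was at 0.13 and Atg9b, which overlaps it, at 0.07. Beside Gpihbp1, Zfp41 was at 0.43 (adjusted p = 0.0850), and Ly6h on the other side was at 0.02 by one probe and -0.03 by another. Gzmk beside Esm1 was at 0.04, and Cspg4b on its other side had no value.

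Over the 19 lungs, the patterns most like each of the 5 genes were sought among 19955 genes by Pearson's r, doses included. Closest to Mmrn2 were Cdkn1a, the cell cycle inhibitor p21 (0.98), Phlda3 (0.97) and Tnfaip8l1 (0.95). They rose at D3 by 2.93, 2.04 and 1.08. Among the closest to Cd34 were Ppp1r2 (0.96) and the chemokine receptor Ackr3 (0.96). Pkn3 (0.93), Tinagl1 (0.92) and Trim24 (0.90) were closest to Nos3. For Gpihbp1 they were Il6ra (0.89), Fam220a (0.87) and the water channel Aqp1 (0.87), of which Aqp1 fell by 0.75 at D3 (adjusted p = 0.00588). For Esm1 they were Rnf19b (0.87), Efnb2 (0.87) and Syt15 (0.86). These coefficients hold the dose groups in them, with the arrays shared, and say nothing of a shared control.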

How the data were processed

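Deposited scanner files gave the intensity of 62976 spots on each of 38 arrays, median pixel values on a linear scale made by the authors with Feature Extraction 10.7.3.1, without background subtraction. Per the file headers they also hold a log10 ratio that the software had itself corrected for background and dye. A deposited table of log2 ratios (scale found by setting it against the values below, slopes 0.990 to 0.998, centring not stated) served as an alternative.

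Following the study's methods, intensities were loess-normalized within arrays, and control and outlier spots left out. Spots were averaged to 55681 probes, of which 26413 were named through RefSeq (GRCm38.p6). The array's own build is mm9. A gene was read from its brightest lung probe. A median of 46.6% of probes per array (30.1% to 63.8%) were well above background. Precision rests on how many arrays each group has. Of the forestomach arrays, 2 carried mouse number 18 and were averaged to 1 replicate. limma 3.58.1 in R 4.3.3 was fitted per tissue, with a mean per dose, or over both tissues for their difference, in place of the MAANOVA of the methods, with Benjamini-Hochberg adjustment over all probes. The script was tested on simulated data.

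All 36 genes are described by role, with values per mouse for those called, their other probes, called genes of the pathway lists, all partners of Mmrn2 and lipid genes, the 3 closest patterns (1 gene is not reported here) and the neighbouring genes. Members and lists were chosen with earlier results of these data known. Lung and forestomach of 1 mouse share its number, so the numbers pair the tissues. The deviations of the 18 pairs from their group means correlated at 0.075 to 0.249, over 0.1 for 16. No pairs of different mice were set beside them, so these values do not test the pairing. Alternatives were other normalizations, fits, blocks, covariates and single mice left out. The mesothelium covariate, the Cy5 signal alone and the within-slide values were added after seeing the data.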

Additional observations from a re-analysis of the deposited data

Results flagged for a closer look

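The D3 response of 3 genes differed between the tissues by a test of the difference itself. It was larger in lung by 2.08 for Mmrn2 (adjusted p = 0.00286), by 2.00 for Cd34 (adjusted p = 0.0377) and by 1.39 for Vegfc (adjusted p = 0.0183), on the log2 scale. With the tissues paired by mouse as a fixed replicate block, Mmrn2 passed (2.02, adjusted p = 0.00215) and Cd34 (1.95, adjusted p = 0.167) and Vegfc (1.23, adjusted p = 0.0862) did not. The Cd34 difference was also lost with slide or scan date as a block and when 1 of 13 samples was left out. From the scanner's log ratio and with only the compared groups, neither Cd34 nor Vegfc passed, and with median centring none of the 3 did. All 5 D3 lungs were above the D0 mean for Mmrn2 and Cd34. In 56 group checks over the 5 genes that changed and the mean of the set with and without them, no mouse stood apart from its group.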

How the results depend on the processing

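The 5 genes called in lung at D3 kept their direction under all alternatives and passed whichever mouse was left out, with 5 to 7 genes of the set called. Median centring of each array, which moved the median of genes with signal by 0.41 at D3 in lung, left 1 gene at D3, 0 at D1, 0 at D2, 0 in the trend and 0 in the tissue difference, gave a set median of 0.33, a mean per mouse of 0.42 at D3 and a median pairwise r of 0.81, and turned Flt1 to 0.13. With slide as a block 8 genes passed at D3 and 9 in the trend, adding Emcn, Pecam1 and Ednrb, and Mmrn1 in the trend. With mesothelium markers as a covariate 8 passed at D3, adding Emcn, Pecam1 and Flt4, and with heart markers 8 in the trend. From Cy5 alone 5 passed at D2, adding Gpihbp1 and Robo4, and 7 at D3, adding Emcn and Robo4, and the D3 median was 0.18. With only the compared groups 2 passed at D1. The mean per mouse from the scanner's log ratio was -0.0272. In the tissue difference 1 gene, Mmrn2, passed from the scanner's log ratio, from Cy5 alone, with both arrays of mouse 18 or the first only, with only the compared groups, with slide or scan date as a block and with the mouse as a fixed replicate block, against 3 with the paired mouse as a random replicate block. Leaving out single mice gave 1 to 3 there, 2 to 3 at D2, 1 at D1, 5 in the trend, 0 at every forestomach dose and between D3 and D1, 34 to 35 between the untreated tissues, and a D3 median from -0.03 to 0.09. Besides these, with Nos3 added by the random block, the replicate block changed no call of the set. The causes were not tested. In forestomach, 21 genes of the set were well above background in the tissue channel on all 19 arrays, and Flt4, Erg and Calcrl on none. Tek reached this on 2 arrays, Apln on 6, Sox17 on 7, Esm1 on 13, and Emcn, Tie1, Bmp6 and Aplnr on 10 each. The reference channel was well above background on no forestomach array for Kdr, Emcn, Tek, Sox17, Sox18, Erg and Calcrl. Genes short of all arrays in either channel are limited by signal near background in forestomach.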
